A study of Mus musculus with 4 samples.

Results

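This report describes 4 microRNAs (miRNAs) known from liver, gut and pancreatic islets, mmu-miR-122-5p, mmu-miR-192-5p, mmu-miR-194-5p and mmu-miR-375-3p (without the mouse prefix below), in macrophage libraries. They were chosen by name, and all 4 had a row among the 847 rows of the small RNA count table. Macrophages had been sorted from bone marrow (BM) or spleen of C57BL/6J mice, given as 6 to 8 weeks old. Normal mice supplied 1 BM and 1 spleen library. Mice that had received GFP+ MLL-AF9 acute myeloid leukaemia (AML) cells without irradiation, so that host blood formation was not ablated, supplied the other two at 18 days, and survival of such mice is given as 35 to 40 days. The sources used here do not give the number of mice in a library or the markers of the sort. The design asks how the miRNAs of macrophages in leukaemia compare with those at homeostasis.

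A miRNA is cut from the stem of a hairpin, whose 5p and 3p arms can each give a mature strand, and bases 2 to 8 of that strand (the seed) choose its targets. miR-122 is the dominant miRNA of hepatocytes, and it is also measured in blood plasma as a sign of liver injury. miR-192 and miR-194 are abundant in the epithelium of liver, gut and kidney, and miR-375 restrains insulin release in the beta cells of pancreatic islets. None of them is regarded as a marker of macrophages.

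The sequences below, from RefSeq (GRCm38.p6), show why miR-192 and miR-194 are read together and which rows could tell their hairpins apart. Mature sequences of 2 of the 4 miRNAs were matched there. In the 5p sequences the capitals mark the seed, and in the 3p sequences they mark the bases at which the miR-194 arms differ.
miR-192-5p: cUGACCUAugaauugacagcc
miR-215-5p: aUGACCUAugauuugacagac
miR-194-5p: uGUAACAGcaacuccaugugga
miR-194-2-3p: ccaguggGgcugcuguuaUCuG
miR-194-1-3p: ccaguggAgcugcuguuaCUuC
miR-215-5p is the seed relative of miR-192-5p, with the same seed UGACCUA and 3 differences over 21 bases (C1A, A12U and C20A, counted from the 5′ end, miR-192-5p first). No other mature miRNA of that table has the seed of miR-194-5p. The same miR-194-5p is encoded in 2 places, so its count cannot be assigned to either.

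The first place is chromosome 19, where the Mir194-2 hairpin (6264643 to 6264728, + strand) lies 115 bases before Mir192 (6264844 to 6264932, + strand). GENCODE lists no other gene over this pair, and the nearest protein-coding gene is Atg2a, 2308 bases from Mir194-2. The second is chromosome 1, where Mir194-1 (185313319 to 185313385, + strand) lies 195 bases before Mir215 (185313581 to 185313692, + strand). Mir194-1 is intronic and Mir215 exonic in the non-coding gene 2010103J01Rik, and on the opposite strand both lie in an intron of Iars2. Mir375 (chromosome 1, 74900658 to 74900721, - strand) overlaps no other gene and is 1350 bases from Cfap65.

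Total counts ran from 180227 in AML spleen to 435492 in normal spleen. Each group is 1 library, so nothing below could be checked against replicates and all comparisons are between libraries, not conditions. A level is given in CPM, the count per 1000000 reads after the library was scaled with its TMM factor (a trimmed mean of the ratios between libraries). Brackets hold 95% intervals, which cover counting error only, since each group is 1 library. The files hold reads without molecular identifiers, so that error is of reads, not of molecules. A difference was called from a 2-fold ratio in either direction with an interval that did not hold 1, where the larger of both counts reached 30.

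The sort was checked on 4 myeloid and pan-haematopoietic miRNAs, both arms of miR-223 and of miR-142a. All were detected in every library, but they held 0.0726% of reads in normal BM, 0.186% in AML BM, 0.266% in AML spleen and 0.646% in normal spleen. The neutrophil and monocyte miRNA miR-223-3p had 10, 12, 4 and 28 counts in these libraries. For miR-142a-3p, found across blood cells, the counts were 31, 170, 253 and 1704, and the row miR-142b, which holds the same counts, was left out. In normal BM there were thus 45.9 reads [32.2 to 67.9] of miR-122-5p per read of miR-142a-3p. This ratio was 0.215 [0.192 to 0.241] in normal spleen, 5.04 [4.27 to 5.98] in AML BM and 2.07 [1.78 to 2.42] in AML spleen. In 3 of 4 libraries labelled as macrophages, the hepatocyte miR-122-5p therefore gave more reads than miR-142a-3p, with normal spleen the exception. This did not hold for every blood cell miRNA. In normal BM, AML BM and AML spleen the lymphocyte miRNA miR-181a-5p had 2727, 10240 and 6378 counts, more than the 1424, 857 and 524 of miR-122-5p. miR-342-3p had fewer, with 32, 34 and 121, and miR-150-5p had more only in AML spleen, with 154, 379 and 1676. A macrophage activation list, miR-155-5p, miR-146a-5p and miR-21a-5p, held more reads than the myeloid list. Its share was 4.11% in normal BM, 2.72% in AML BM, 4.32% in AML spleen and 2.92% in normal spleen. In normal BM, 8046 of its 8497 counts were miR-21a-5p and 14 were miR-155-5p.

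The 4 miRNAs were highest in normal BM and lowest in normal spleen, and the AML libraries lay between. Together they made up 1.92% of all reads in normal BM (3968 counts, Wilson interval 1.86% to 1.98%). In AML BM they made up 1.12% (1.08% to 1.16%), in AML spleen 0.994% (0.949% to 1.04%) and in normal spleen 0.206% (0.192% to 0.219%). Fewer cells that carry a miRNA and fewer copies per cell cannot be told apart in such libraries.

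The hepatocyte miRNA miR-122-5p had 1424 counts in normal BM, 857 in AML BM, 524 in AML spleen and 367 in normal spleen. Scaled, these were 6867, 3056, 2716 and 936 CPM. Normal BM thus stood highest and normal spleen lowest, while the AML libraries lay close together. By abundance it ranked 30 in normal BM and 81 in normal spleen among all rows.

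miR-192-5p, of the epithelium of gut, liver and kidney, was the most abundant of the 4 in every library. Its counts were 1793 in normal BM, 1585 in AML BM, 941 in AML spleen and 388 in normal spleen, or 8646, 5653, 4877 and 990 CPM. It ranked 26 in normal BM, 38 in each AML library and 80 in normal spleen. miR-194-5p had 699, 582, 312 and 133 counts in the same order of libraries, or 3371, 2076, 1617 and 339 CPM. The order of libraries was the same for miR-122-5p, miR-192-5p and miR-194-5p: normal BM, AML BM, AML spleen, normal spleen.

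The islet miRNA miR-375-3p was sparse, with 52 counts in normal BM, 17 in AML BM, 14 in AML spleen and 7 in normal spleen. These were 251, 60.6, 72.6 and 17.9 CPM, so the AML libraries stood in the other order, by less than counting error. It passed the minimum of 30 counts only through normal BM, the library in which it was highest.

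**Figure D1:**
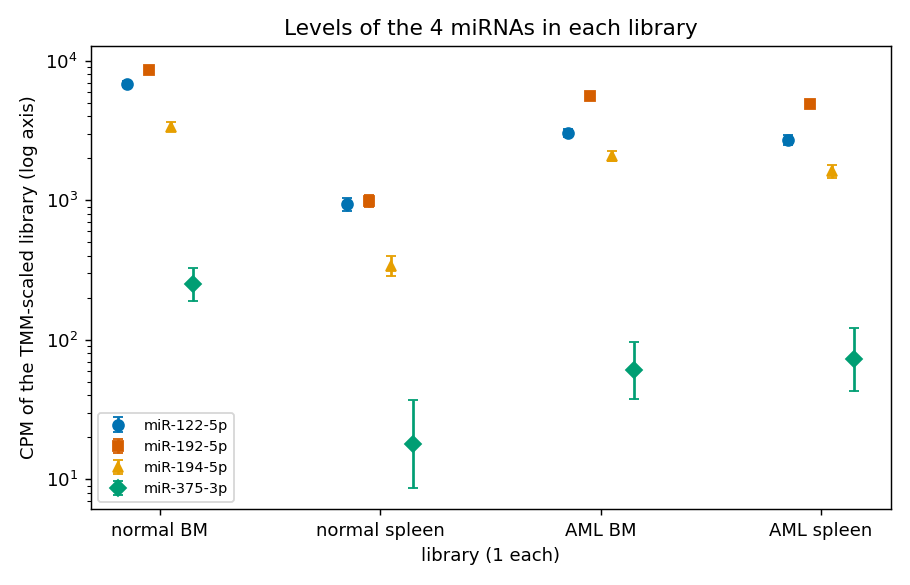
Scaled CPM (log axis) of each miRNA in the 4 libraries, with 1 library per group and bars for the 95% Wilson interval of the share, which covers counting error only. Every miRNA is highest in normal BM and lowest in normal spleen, from 6867 to 936 CPM for miR-122-5p and from 251 to 17.9 CPM for miR-375-3p.

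In AML BM, miR-122-5p and miR-375-3p were lower than in normal BM by the 2-fold rule, and miR-192-5p and miR-194-5p were not. Under this rule 12.0% of the 216 rows compared were lower and 13.4% higher, and of the 4 miRNAs 2 were lower and none higher. miR-375-3p was compared only through its count in normal BM, so its call is no support for a lower level. Of the other 3, all with at least 100 counts, 1 was lower, beside 6.87% of the 131 rows at that minimum. The log2 ratio was -1.17 [-1.29 to -1.04] for miR-122-5p and -2.05 [-2.93 to -1.23] for miR-375-3p, a 2.25-fold and a 4.14-fold lower level. It was -0.61 [-0.71 to -0.51] for miR-192-5p and -0.70 [-0.86 to -0.54] for miR-194-5p. All 4 intervals lay below 0. The median of the 4, miR-375-3p included, was -0.93, beside 0.00 over the 216 rows. The call of miR-122-5p ended on totals without the 10 most abundant rows, at -0.97, which left miR-375-3p as the 1 miRNA called.

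In AML spleen the abundant 3 were all higher than in normal spleen. Of the 216 rows compared, 25.0% were at least 2-fold higher and 21.3% lower, and all 3 miRNAs with enough counts were among the higher rows. The log2 ratio was 2.30 [2.13 to 2.48] for miR-192-5p, 2.25 [1.96 to 2.56] for miR-194-5p and 1.54 [1.34 to 1.73] for miR-122-5p, or 4.93-fold, 4.77-fold and 2.90-fold. Their median was 2.25, beside -0.25 over all rows compared, and 22 rows had a ratio above that of miR-192-5p. miR-375-3p, with 14 counts against 7, was too thinly covered for a call, and its log2 ratio of 2.02 had an interval of 0.62 to 3.57.

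Between the normal libraries the gap was wider than in either AML comparison. Normal spleen had all 4 miRNAs lower than normal BM, where 35.5% of 234 rows were lower and 30.8% higher. Here too miR-375-3p was compared only through normal BM, so its call is no support. The other 3 were all lower with a minimum of 100 counts, beside 31.3% of 150 rows. The log2 ratio was -2.88 [-3.04 to -2.71] for miR-122-5p, -3.13 [-3.29 to -2.97] for miR-192-5p and -3.31 [-3.59 to -3.04] for miR-194-5p. For miR-375-3p it was -3.81 [-5.20 to -2.67]. These correspond to levels 7.34-fold, 8.74-fold, 9.94-fold and 14.0-fold lower. The median of the 4, miR-375-3p included, was -3.22, beside 0.19 over all rows compared. Of these rows, 35 lay below the ratio of miR-122-5p, the least negative of the 4.

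Between the AML libraries no member reached 2-fold. AML spleen stood at -0.17 [-0.33 to -0.01] against AML BM for miR-122-5p, -0.21 [-0.33 to -0.10] for miR-192-5p and -0.36 [-0.56 to -0.16] for miR-194-5p. Of 211 rows compared, 13.7% were higher and 21.3% lower, and the median was -0.12, beside -0.21 for these 3. miR-375-3p had 14 and 17 counts, with an interval of -0.87 to 1.37 around a log2 ratio of 0.26.

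**Figure D2:**
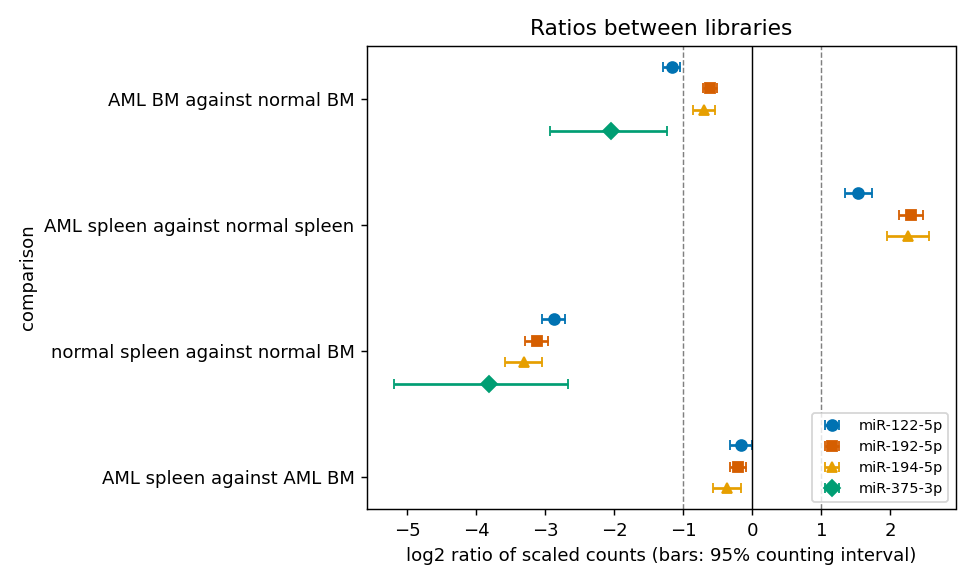
Log2 ratios of scaled counts (x axis) for each comparison (y axis), with 95% counting intervals as bars, dashed lines at 2-fold, and miR-375-3p left out where its larger count was under 30. The ratios lie left of 0 in AML BM against normal BM, right of 0 in AML spleen against normal spleen, and near 0 between the AML libraries.

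The AML-to-normal ratio was thus below 1 in BM and above 1 in spleen for miR-122-5p, miR-192-5p and miR-194-5p. On the log2 scale the spleen ratio exceeded the BM ratio by 2.70 [2.48 to 2.93] for miR-122-5p, 2.91 [2.72 to 3.11] for miR-192-5p and 2.95 [2.62 to 3.29] for miR-194-5p. For miR-375-3p the gap was 4.07, with a wide interval of 2.54 to 5.60. Many rows had these signs: 61 of the 186 rows compared in both tissues (32.8%), these 3 miRNAs included, had a BM ratio below 1 and a spleen ratio above 1.

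**Figure D3:**
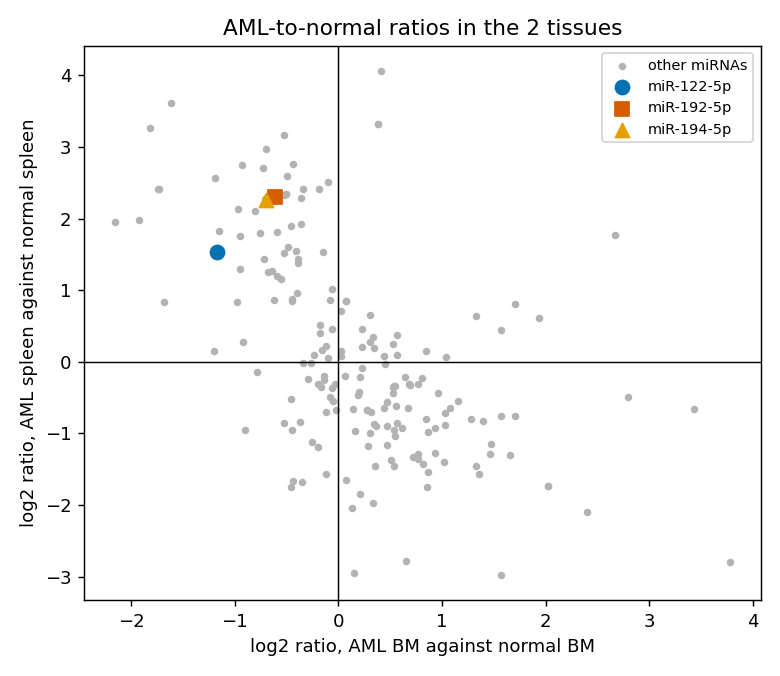
Each point is 1 of the 186 miRNAs compared in both tissues, with its log2 AML-to-normal ratio in BM on the x axis and in spleen on the y axis. miR-122-5p (-1.17, 1.54), miR-192-5p (-0.61, 2.30) and miR-194-5p (-0.70, 2.25) lie in the upper left quadrant with 61 points in all, and the latter pair nearly coincide.

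The ratio between miRNAs of the same library does not depend on how libraries are scaled. miR-192-5p and miR-194-5p, from neighbouring hairpins, kept nearly the same proportion in the 4 libraries. There were 2.57 reads [2.35 to 2.80] of miR-192-5p per read of miR-194-5p in normal BM, 2.72 [2.47 to 3.0] in AML BM, 3.02 [2.65 to 3.44] in AML spleen and 2.92 [2.39 to 3.58] in normal spleen. None of the 4 comparisons moved this proportion beyond counting error. The estimates of its change ran from 1.03-fold to 1.14-fold, and their intervals together spanned 0.817 to 1.41, so a change of that size would not be seen.

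Against the hepatocyte miRNA the picture differed. miR-192-5p per miR-122-5p was 1.26 [1.17 to 1.35] in normal BM and 1.06 [0.914 to 1.22] in normal spleen. In the AML libraries it was higher, 1.85 [1.70 to 2.01] in BM and 1.80 [1.61 to 2.0] in spleen. The change with AML was 1.47-fold [1.32 to 1.64] in BM and 1.70-fold [1.42 to 2.03] in spleen, in the same direction in both tissues, which share no library. Between AML spleen and AML BM it was 0.971-fold [0.848 to 1.11]. The proportion also differed between the normal libraries, by 0.840-fold [0.716 to 0.984] in spleen against BM. miR-194-5p per miR-122-5p moved likewise with AML, by 1.38-fold [1.20 to 1.59] in BM and 1.64-fold [1.29 to 2.09] in spleen, and it was 0.738-fold [0.594 to 0.918] in normal spleen against normal BM. In AML BM both miR-192-5p and miR-194-5p were therefore less reduced than miR-122-5p, and in AML spleen they were further above normal.

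miR-375-3p stood apart from miR-192-5p in 1 comparison of 4. Reads of miR-192-5p per read of miR-375-3p numbered 34.5 [26.2 to 46.3] in normal BM and 93.2 [58.0 to 160] in AML BM, a 2.70-fold change [1.56 to 4.69]. The spleen libraries had 55.4 [26.6 to 139] and 67.2 [39.9 to 123], normal first, which overlap. No minimum count was set for these ratios. The change in BM rests on the same 52 and 17 counts of miR-375-3p as its call, which is no support. The spleen ratios rest on 7 and 14 counts.

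**Figure D4:**
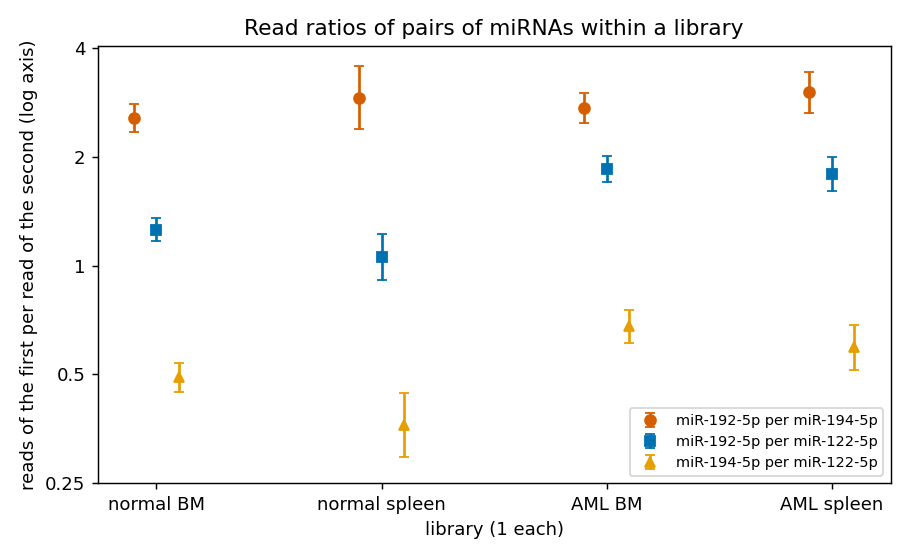
Reads of one miRNA per read of another within each library (log axis), with 95% exact intervals for counting error. miR-192-5p per miR-194-5p stays between 2.57 and 3.02, while miR-192-5p per miR-122-5p is 1.26 and 1.06 in the normal libraries and 1.85 and 1.80 in the AML libraries.

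The other products of these hairpins were rare. Of 7 other arms and relatives looked for, 4 had a row. miR-215-5p had 12 counts in normal BM and 0 in each other library, where 3 counts, taken as the limit for a count of 0, correspond to 7.65 CPM in normal spleen, 10.7 CPM in AML BM and 15.5 CPM in AML spleen. Its level in normal BM was 57.9 CPM, and the 95% interval of its ratio, with the counting error of the 12 counts included, began at 5.25-fold higher than in normal spleen, 3.76-fold than in AML BM and 2.59-fold than in AML spleen. The seed of miR-192-5p and miR-215-5p was thus supplied almost wholly by miR-192-5p in these reads. miR-192-3p had 7 counts in AML BM and 0 elsewhere, and miR-122-3p had 2 in AML BM and 0 elsewhere.

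miR-194-2-3p, which only the chromosome 19 hairpin encodes, did not keep step with miR-194-5p. It had 8 counts in normal BM, 3 in AML BM, 0 in AML spleen and 13 in normal spleen. Scaled, these were 38.6, 10.7, 0 and 33.2 CPM, so the normal libraries stood close together in miR-194-2-3p while miR-194-5p was 9.94-fold lower in normal spleen than in normal BM. As a share of miR-194-2-3p and miR-194-5p together it made up 8.90% (Wilson interval 5.28% to 14.6%) in normal spleen, 1.13% (0.574% to 2.22%) in normal BM and 0.513% (0.175% to 1.5%) in AML BM. In AML spleen it was 0 of 312, which allows a share of up to 0.962% by the limit of 3 counts and 1.22% by the Wilson interval. The interval of normal spleen lay above those of the other libraries. Since miR-194-5p can come from either hairpin and miR-194-1-3p had no row, this is not the strand share of a hairpin. A shift between hairpins and a shift between strands cannot be told apart here.

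Other miRNAs of liver, pancreas and gut had the same highest and lowest library in sum, over a narrower range. Of 8 listed, 5 had a row. The liver and pancreas miRNA miR-802-5p had at most 3 counts in a library, and the acinar miR-216a-5p had 3 in normal BM and 0 elsewhere. The abundant miR-148a-3p and miR-7a-5p, which blood cells also express, carried the list. Its summed level was 28798 CPM in normal BM, 24686 in AML BM, 27600 in AML spleen and 18134 in normal spleen. miR-148a-3p (21743 and 9865 CPM) and the sparser miR-31-5p (241 and 56.1 CPM) were both lower in normal spleen than in normal BM, 2 of 3 compared, with a list median of -1.14, where 35.5% of all rows were lower. In AML BM, 1 of 3 compared (miR-31-5p, -1.32) was lower than in normal BM, beside 12.0% of all rows. miR-31-5p reached the minimum count only through normal BM, where it was highest. Its calls in AML BM and in normal spleen are therefore no support for a lower level. In AML spleen, 0 of 2 compared were at least 2-fold higher than in normal spleen, beside 25.0% of all rows, and miR-148a-3p stood at 0.87. miR-7a-5p was neither in every comparison.

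Summed, the marker lists of other non-blood cells were likewise highest in normal BM and lowest in normal spleen. The epithelial list (miR-200 family, miR-203 and miR-205, 7 of 7 with a row) summed to 14283 CPM in normal BM, 10189 in AML BM, 8039 in AML spleen and 1987 in normal spleen. Its largest part was miR-200a-3p, at 9369.5 CPM in normal BM. miR-200c-3p differed, at 333, 178, 213 and 411 CPM in this order of libraries, so that normal spleen was its highest. miR-141-3p was at 0 in AML BM and highest in AML spleen, at 46.6 CPM. Of the epithelial list, 4 of 5 compared were higher in AML spleen than in normal spleen, beside 25.0% of all rows. In normal spleen, 5 of 6 compared were lower than in normal BM, beside 35.5% of all rows. In AML BM, 1 of 6 compared (miR-205-5p) was lower than in normal BM, beside 12.0% of all rows. miR-205-5p reached the minimum count only through normal BM, where it was highest. Its calls in AML BM and in normal spleen are therefore no support for a lower level. The muscle list (5 of 7 with a row, none at 0) summed to 36022, 10588, 12346 and 2334 CPM in the same order, and the stromal and endothelial list (6 of 6, none at 0) to 31489, 21630, 21758 and 3617 CPM. Their part in the levels of the 4 miRNAs was not tested.

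Within a library, the summed 4 miRNAs had between 1.06 and 1.34 reads per read of the epithelial list, a 1.26-fold span over the libraries. The span was 1.48-fold against the stromal and endothelial list and 1.93-fold against the muscle list. It was 5.28-fold against the other liver, pancreas and gut miRNAs, 6.64-fold against the macrophage activation list and 8.14-fold against the erythroid list. miR-192-5p, the largest part of the summed 4 miRNAs, had spans of 1.22-fold against both the epithelial and the stromal list. They were wider for miR-122-5p, at 1.60-fold and 2.07-fold, and for miR-375-3p, at 2.95-fold and 2.84-fold. Against the muscle list the span of miR-375-3p was 1.34-fold, and all its spans rest on few counts, 7 in normal spleen. The lymphocyte list (miR-150-5p, miR-181a-5p and miR-342-3p, none at 0) summed to 14047 CPM in normal BM and 100326 CPM in normal spleen, and the span against it was 59.9-fold. Against the myeloid list, which summed to 723 CPM in normal BM and 7179 CPM in normal spleen, the span was 83.2-fold. That sum was carried by the miR-142a arms, whereas miR-223-5p was lower in normal spleen (91.8 CPM) than in normal BM (203 CPM). The erythroid list summed to between 7625 and 9659 CPM, but its members differed. miR-451a stood at 5126 CPM in normal BM, 1152 in AML BM, 1840 in AML spleen and 474 in normal spleen, with the same highest and lowest library as the 4 miRNAs. miR-486a-5p ran from 4403 CPM in normal BM to 8840 CPM in normal spleen. These ratios were added after the values were seen.

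**Figure D5:**
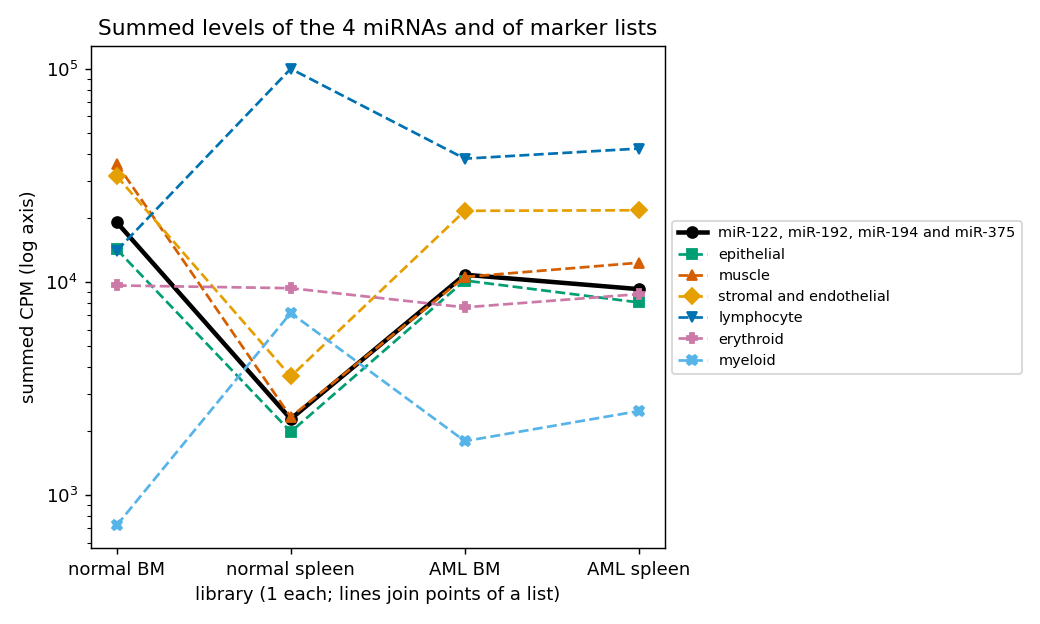
Summed CPM (log axis) of the 4 miRNAs (black) and of 6 marker lists in each library, with lines joining the points of a list. The 4 miRNAs, epithelial, muscle and stromal lists are highest in normal BM and lowest in normal spleen, while the summed lymphocyte and myeloid lists are lowest in normal BM and highest in normal spleen.

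The miRNAs with the most similar pattern over the 4 libraries were found among 144 with at least 30 counts in every library. Likeness was the root mean square difference of log2 levels, each centred on its own mean, so 0 is an identical pattern. For miR-192-5p the nearest was miR-30a-5p at 0.03, with 5553 counts in normal BM, 5222 in AML BM, 3046 in AML spleen and 1235 in normal spleen. miR-194-5p came next at 0.09 and the epithelial miR-200b-3p at 0.10. For miR-194-5p the nearest were miR-192-5p at 0.09, miR-30a-5p at 0.11 and miR-200b-3p at 0.13.

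For miR-122-5p the nearest were less close: the stromal miR-199a-5p at 0.16, miR-152-3p at 0.22 and miR-200b-3p at 0.24. miR-194-5p and miR-192-5p came 10 and 11 in its order, both at 0.34. The sparse miR-375-3p lay nearest to the muscle miRNA miR-206-3p at 0.09, the erythroid miR-451a at 0.19 and the muscle miRNA miR-1a-3p at 0.20. For miR-206-3p the counts were 986 in normal BM, 351 in AML BM, 250 in AML spleen and 129 in normal spleen. miR-375-3p and miR-192-5p, at 0.52, were less alike than any other pair of the 4.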

How the data were processed

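The authors deposited read counts for each miRNA row of 4 small RNA libraries, sequenced on an Illumina HiSeq from QIAGEN RNeasy Mini total RNA, per the labels. The sources used here do not name the aligner, counting tool, genome build or annotation. The authors' deposited TPM values, named so per the file headers, equalled count per 1000000 counts of the library with no length term and served only for this check. Samples were grouped by title. Counts were scaled with TMM factors (edgeR 4.0.16, R 4.3.3), which were 1.00 for normal BM, 0.900 for normal spleen, 1.03 for AML BM and 1.07 for AML spleen. Ratios have exact conditional (Clopper-Pearson) intervals, and gaps between ratios and changes of proportions have intervals from the sum of reciprocal counts. No test across replicates was made, with 1 library per group. A count of 0 entered as 3 counts. Rows repeating the counts of a member within 3% or 2 counts in every library numbered 0. On simulated Poisson counts for AML BM against normal BM (215 miRNAs compared), intervals covered 97.2% of true ratios. Among the compared rows, a call was made for 100% of the 110 with a 4-fold change and for 0 of the 105 simulated as equal. These calls say nothing about rows under the minimum count. Neither the coverage nor the calls say anything about variation between mice.

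The members, marker lists and rules were chosen with earlier results of these data known. Named miRNAs are the 4 members, their other arms and relatives, up to 3 of each marker list (all 4 of the myeloid list), any at or near 0, and the 3 nearest in pattern. Coordinates and sequences come from RefSeq and GENCODE M21 on GRCm38, and the table itself has none. Alternatives were DESeq2 1.42.0 size factors, total counts, totals without the 10 most abundant rows, the predicted rows left out, TMM factors from the compared libraries only (added after the values were seen), and other count minimums and folds.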

Additional observations from a re-analysis of the deposited data

Results flagged for a closer look

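For 3 miRNAs the AML-to-normal ratio went one way in BM and the other way in spleen, with counting intervals on opposite sides of 1. The log2 ratio of the spleen minus that of the BM was 2.70 for miR-122-5p, 2.91 for miR-192-5p and 2.95 for miR-194-5p. Of the 186 rows compared in both tissues, 61 (32.8%), these 3 miRNAs included, had a BM ratio below 1 and a spleen ratio above 1. The difference equals the log2 ratio of AML spleen to AML BM minus that of normal spleen to normal BM, so it is no separate result from those comparisons. With 1 library per tissue and state, this difference was not tested against variation between mice.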

How the results depend on the processing

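Of 70 recomputed ratios (14 ratios under 5 other scalings), 0 changed direction, 1 call ended and 0 began. The call that ended was that of miR-122-5p in AML BM against normal BM, at -0.97 on totals without the 10 most abundant rows, a setting that raised every ratio of this comparison by 0.20. It gave -0.42 for miR-192-5p and -0.50 for miR-194-5p, and 1 miRNA called, miR-375-3p. With a minimum of 100 counts the number called there was also 1, miR-122-5p (12.0% of all rows were lower with 30 counts and 6.87% with 100). At 4-fold it was 1, miR-375-3p, where 3.24% of all rows were lower. At 1.5-fold it was 4, where 22.2% of all rows were lower. miR-375-3p was compared there only through its count in normal BM, so its calls are no support for a lower level. In AML spleen against normal spleen the number called was 4 with a minimum of 1 count, where 15.5% of all rows were higher. At 4-fold it was 2, where 13.4% of all rows were higher. In the same comparison DESeq2 size factors gave 1.30 for miR-122-5p and 2.06 for miR-192-5p, and total counts gave 1.79 and 2.55. In normal spleen against normal BM, DESeq2 size factors gave -2.64 and -2.89 for these miRNAs, and totals without the 10 most abundant rows gave -2.69 and -2.94. The spleen-minus-BM gap stood at 2.44 for miR-122-5p and 2.65 for miR-192-5p with DESeq2 size factors, and at 3.12 for miR-192-5p on total counts. Of the 3 miRNAs nearest in pattern to miR-122-5p, 1 remained with a minimum of 100 counts, since fewer rows qualified. Depth limits miR-375-3p most, with 7 to 52 counts. No paired analysis was possible because each group has 1 library and the labels give no replicate numbers.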
